A study of Homo sapiens with 12 samples.

Results

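Wild-type (WT) NFATC1 was compared with a multi mutant (MM) NFATC1 in PC-3 cells that carry no added PIM1. In MM, sites that the study names as PIM1 targets are mutated. The comparison used 4 of the 12 samples of the series, namely the 2 samples of control cells given WT NFATC1 and the 2 samples of control cells given MM NFATC1, and it covered all 25471 genes that could be tested. PC-3 is an androgen-independent line from a human prostate adenocarcinoma. All lines in the series were pools of G418-selected cells that had been stably transfected with an empty vector (control) or a PIM1 vector, each together with a plasmid for the red fluorescent protein Td-Tomato. Control cells were then transiently transfected with WT or MM NFATC1, and the same was done in the line labelled stable PIM1 (PIM1 + WT and PIM1 + MM), whose PIM1 signal on the arrays was not clearly raised, as described with the PIM kinases, while the labels name no transient transfection for the control and PIM1 samples. RNA was labelled with Cy3 for control, WT and PIM1 + WT cells and with Cy5 for MM, PIM1 and PIM1 + MM cells, and each array of a human expression slide held 1 sample of each colour. Each WT sample therefore shared its array with 1 MM sample, no dye was swapped, and dye and form of NFATC1 cannot be told apart in the difference between them. Each group has 2 samples, and no label calls them separate transfections. The p-values measure the spread between samples of a group, pooled over the 6 groups of the series, which may be technical.

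NFATC1 belongs to a family of transcription factors that sit phosphorylated in the cytoplasm. A rise in calcium activates the phosphatase calcineurin, which removes phosphates from the regulatory domain so that NFAT proteins enter the nucleus and bind DNA at sites with a GGAAA core, often beside AP-1 factors of the FOS and JUN families. NFAT proteins are best known in T cells, where they drive cytokine genes, and in epithelial tumour cells they have been tied to migration and invasion. PIM1 is a constitutively active serine/threonine kinase that can phosphorylate NFATC1. The comparison asks which genes differ between cells given WT and cells given MM NFATC1, with only the cells' own PIM1 present. The groups may also differ in the amount of NFATC1, as described with its probes.

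The mutagenesis primers define what distinguishes the proteins, so the forward primer of each of the 5 listed pairs is shown beside the wild-type primer of the same site. Letters are lower case where both primers have the same base, and capitals mark the 22 bases that differ. All 10 residues named for these primers become alanine, which cannot be phosphorylated. The study lists some of these residues also as sites of other kinases.
Ser245, WT: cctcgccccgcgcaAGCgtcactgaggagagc
Ser245, mutant: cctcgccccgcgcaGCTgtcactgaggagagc
Ser269, WT: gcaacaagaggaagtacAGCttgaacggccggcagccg
Ser269, mutant: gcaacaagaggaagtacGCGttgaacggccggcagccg
Ser151, Ser153 and Thr154, WT: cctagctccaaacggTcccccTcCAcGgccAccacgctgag
Ser151, Ser153 and Thr154, mutant: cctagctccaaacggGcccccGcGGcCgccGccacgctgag
Ser256 and Ser257, WT: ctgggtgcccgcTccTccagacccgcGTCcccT
Ser256 and Ser257, mutant: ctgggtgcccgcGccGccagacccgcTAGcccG
Ser335, Thr338 and Thr339, WT: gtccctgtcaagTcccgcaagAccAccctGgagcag
Ser335, Thr338 and Thr339, mutant: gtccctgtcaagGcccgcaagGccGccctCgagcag
Read as codons, with residues counted from the protein's first amino acid as the primers name them, these changes give S245A, S269A, S151A, S153A, T154A, S256A, S257A, S335A, T338A and T339A. The third pair as listed also holds T156A, which its heading does not name, and 4 codons in the last pairs change without changing the amino acid.

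Signals were compared as log2 median spot brightness after quantile normalization over the 12 channels. Before normalization the median spot signal was 139 and 130.5 in the 2 WT channels and 318 and 204 in the 2 MM channels, and at least 60.7% of spots were well above background in each of these 4 channels with none saturated. Replicates of WT and of MM correlated at r = 0.998 across genes, which are not independent replicates. WT and MM on the same array also correlated at r = 0.998. The WT minus MM differences of the 2 arrays correlated at r = 0.541. The epithelial markers KRT8, KRT18, KRT7 and EPCAM were well above background in WT and MM cells, and the leukocyte genes PTPRC and CD3E read 6.43 to 6.65. On the array that holds replicate 1 of WT and MM, 34 genes differed by more than 0.8 while differing by less than 0.3 on the other array. The spots of 32 of these genes lay in 3 small patches of the array, and none of the 34 passed the test.

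NFATC1 itself was higher in MM than in WT cells, and the 2 probes of the array that carry its name gave different answers. Positive differences here mean a higher signal with WT NFATC1, and the values in the study's own gene list carry the opposite sign. At the first probe, log2 signals were 6.87 and 6.87 in control, 7.72 and 7.82 in WT and 11.37 and 11.22 in MM cells, a WT minus MM difference of -3.52. WT read above control, which carries the same dye, and WT and MM did not overlap. At the second probe, signals were 8.33 and 8.25 in control, 8.25 and 8.30 in WT and 8.39 and 8.40 in MM cells, a WT minus MM difference of -0.12. At that probe WT did not stand above control of the same dye. Taken as the median of both probes, NFATC1 was 7.99 and 8.06 in WT and 9.88 and 9.81 in MM cells (difference -1.82, SE 0.0749, adjusted p = 3.63e-05 by limma). The same pattern held in the line labelled stable PIM1, where the first probe read 7.94 and 8.01 in PIM1 + WT and 11.98 and 11.92 in PIM1 + MM cells. Whether either probe lies in the transfected sequence or at a mutated position is not given in the sources used here. A difference in mRNA level and a difference in how well the probe reads both messages therefore cannot be told apart. The study reports NFATC1 overexpression in its cell samples by real-time PCR, without values in its text. If the amounts differ, form and amount of NFATC1 cannot be told apart in the differences of other genes.

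**Figure D1:**
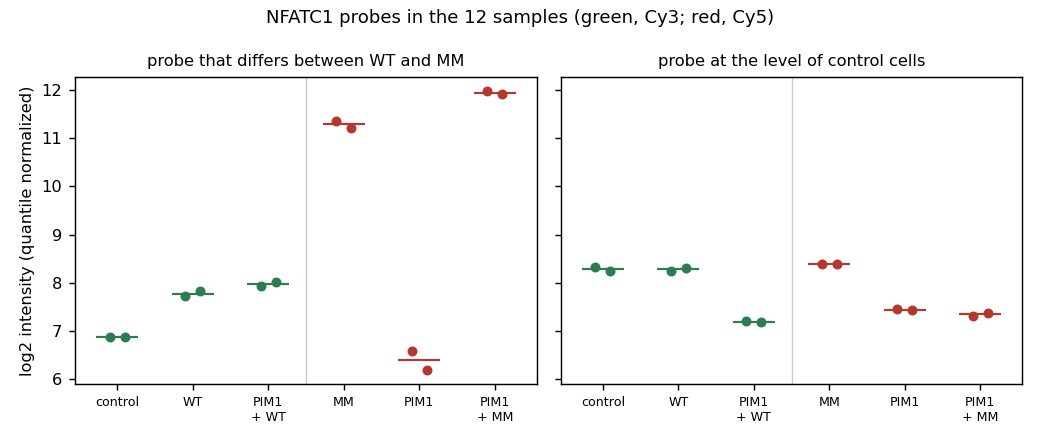
Log2 signal of the 2 NFATC1 probes in each of the 12 samples (points), with group on the x axis. The first probe separates MM from WT (11.37 and 11.22 against 7.72 and 7.82), and the second does not (8.39 and 8.40 against 8.25 and 8.30).

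Few genes passed the test between WT and MM cells, and most of those that did differed by small amounts. An adjusted p below 0.05 was reached by 202 of 25471 genes (0.793%), of which 139 were higher with WT (0.546% of all genes) and 63 were higher with MM (0.247%). Of these, 155 have a matched gene symbol, 105 higher with WT and 50 higher with MM. All 202 had the same sign on both arrays. The median size of the difference among them was 0.437 and the smallest was 0.293, and a difference of at least 1, a 2-fold change, was reached by 3 genes (0.0118%), NFATC1, CTSZ and H3C15. Over all genes the median difference was -0.0018, 49.2% lay above 0, and the middle 90% lay between -0.204 and 0.207. Without adjustment 3037 genes had p below 0.05, 1593 of them higher and 1444 lower with WT. The number of calls changed with the samples and the block used. A fit of the 4 WT and MM samples alone gave 5 calls, and taking the array as a fixed block gave 520. Leaving out replicate 1 or 2 of WT gave 8 or 30 calls and leaving out replicate 1 or 2 of MM gave 9 or 19, while taking the array as a random block gave 1226 calls, 687 of them higher with WT.

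**Figure D2:**
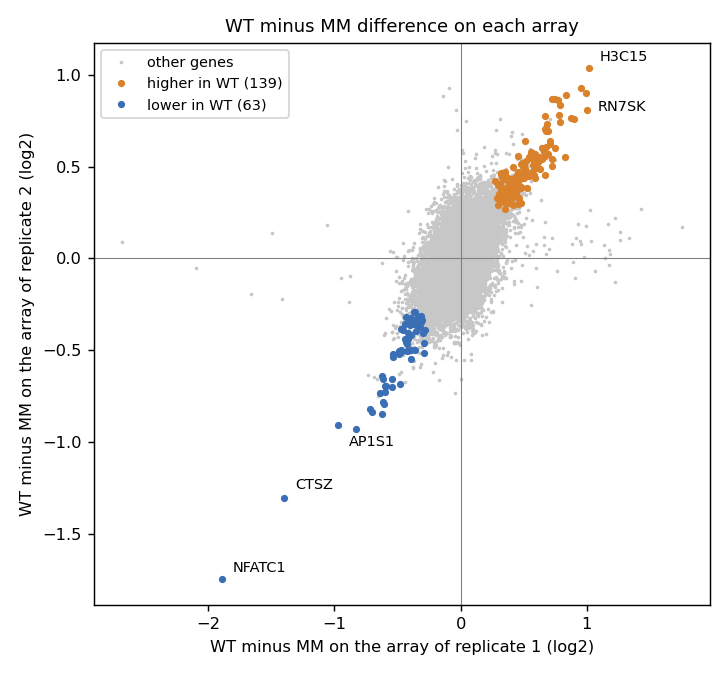
WT minus MM log2 difference of each gene on the array of replicate 1 (x axis) and on the array of replicate 2 (y axis), with the 202 genes of adjusted p below 0.05 marked. All 202 lie in the quadrants of equal sign, while a thin spread of unmarked genes lies far from 0 on the x axis alone.

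The genes lower with WT than with MM were led, after NFATC1, by CTSZ, which encodes cathepsin Z, a lysosomal cysteine protease that trims peptides from the carboxyl end. CTSZ was 9.21 and 9.17 in WT and 10.61 and 10.47 in MM cells. The groups did not overlap, and the difference was -1.35 (SE 0.0877, adjusted p = 0.0006 by limma). In control cells, which carry the same dye as WT, CTSZ was 10.08 and 9.97, so WT lay below control by 0.84 on the log2 scale (WT minus control -0.84, adjusted p = 0.0105). In the line labelled stable PIM1 CTSZ was also lower with WT than with MM (difference -1.40), and the change of the difference between the lines was 0.05. Its spot lies in a band of rows where the array of replicate 1 reads low in WT minus MM over all genes (median -0.093), and without those rows its difference was -1.31 (adjusted p = 0.0253).

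AP1S1, which encodes the small subunit of the AP-1 clathrin adaptor, was 9.43 and 9.46 in WT and 10.40 and 10.37 in MM cells (difference -0.94, SE 0.0745, adjusted p = 0.00199). Control cells read 9.72 and 9.67. The gene was also lower with WT in the line labelled stable PIM1, by a smaller amount (-0.28), and this change of the difference passed its own test. Among the other genes lower with WT were LANCL3 (-0.77), the mixed-lineage kinase MAP3K21 (-0.70), CCDC9 (-0.70), the long non-coding RNAs TEX41 (-0.67) and LINC01793 (-0.63), ARHGEF15 (-0.60), the mitochondrial membrane protein TMEM65 (-0.58), the AMPK-related kinase SNRK (-0.54) and the proteasome assembly chaperone PSMG2 (-0.53). Their adjusted p ranged from 0.0179 to 0.0476. For LANCL3, MAP3K21, CCDC9 and TEX41, WT minus control within the same dye was -0.02, 0.01, 0.02 and 0.07. Control minus PIM1, which also sets Cy3 against Cy5, was -0.87, -0.93, -0.99 and -0.97 for these genes. For AP1S1 and TMEM65 it had the other sign, at 0.37 and 1.56. TMEM65 read 10.27 and 10.25 in WT, 10.70 and 10.58 in control and 10.75 and 10.93 in MM cells, and WT minus control was -0.38 without passing (adjusted p = 0.157).

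The genes highest with WT were led by the histone gene H3C15, the small RNA gene RN7SK and LTB. LTB, which encodes lymphotoxin beta, a membrane-bound cytokine of the TNF family, was 8.83 and 8.77 in WT and 7.93 and 8.01 in MM cells (difference 0.83, SE 0.121, adjusted p = 0.0258). Control cells read 8.08 and 7.91, and the difference between WT and control within the same dye was 0.81 (adjusted p = 0.0446). In the labelled PIM1 line the difference between WT and MM was 0.21 for LTB. NKX2-5, a cardiac homeobox factor, differed by 0.69 and read 15.07 and 14.89 in control, 14.91 and 14.86 in WT and 14.08 and 14.31 in MM cells. Its control minus PIM1 and PIM1 + WT minus PIM1 + MM differences, with the same dye order, were 0.77 and 0.80. FAM177B (0.69) and UTS2R, the urotensin 2 receptor (0.67), had nearly the same differences in the labelled PIM1 line, 0.64 and 0.68. For FAM177B, WT was below control by more than its spread (-0.68, adjusted p = 0.0194), at 11.47 and 11.51 in WT against 12.28 and 12.06 in control and 10.79 and 10.82 in MM cells.

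**Figure D3:**
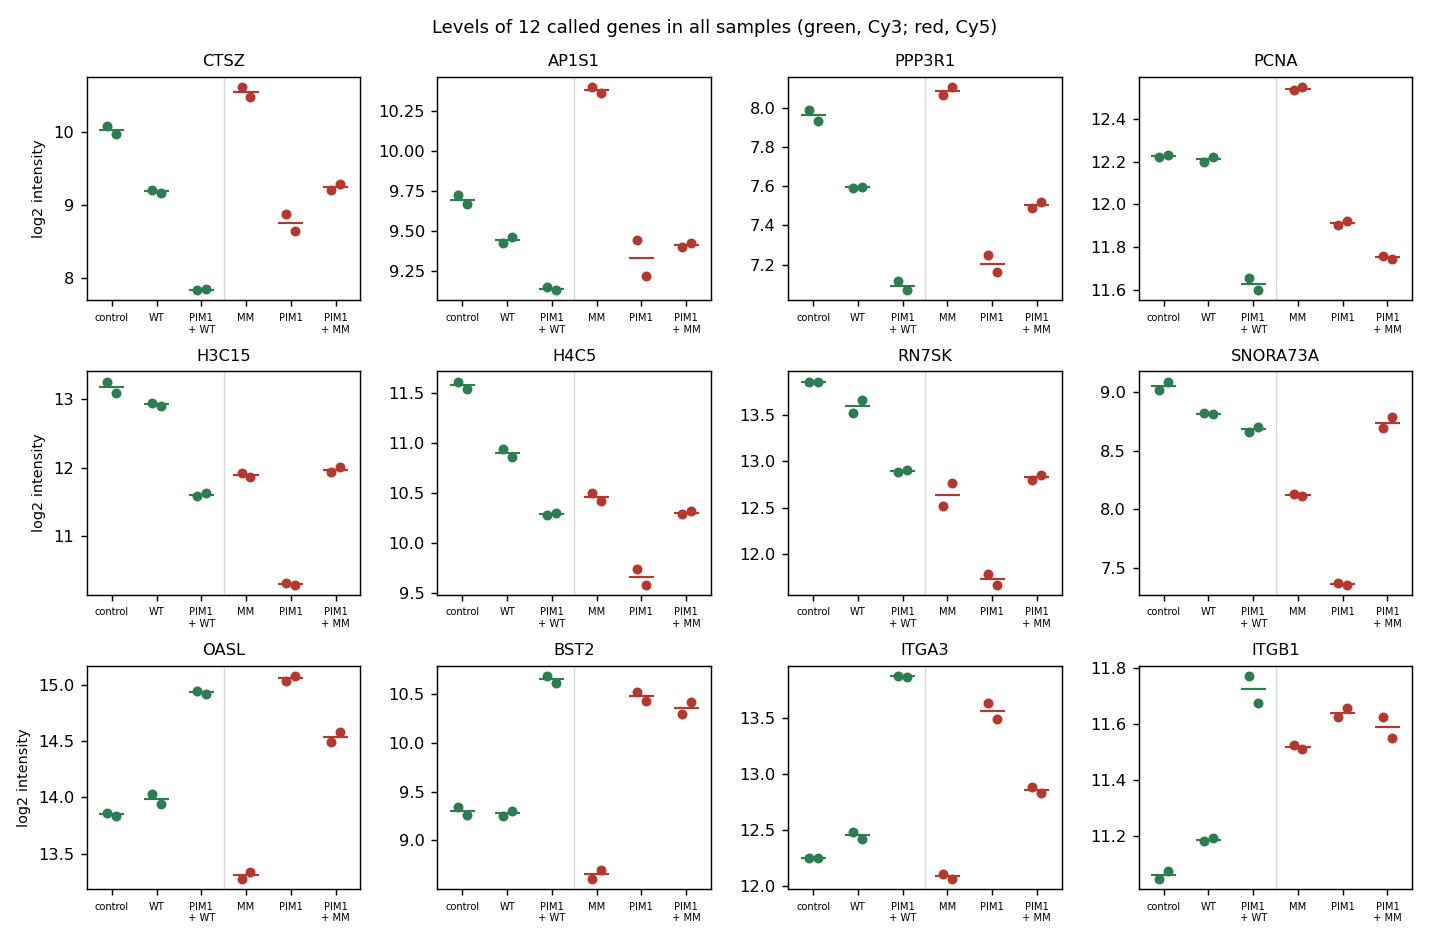
Log2 signal of selected genes in each of the 12 samples (points), with the Cy3 groups control, WT and PIM1 + WT to the left and the Cy5 groups MM, PIM1 and PIM1 + MM to the right. For CTSZ the 2 WT samples (9.21 and 9.17) lie below the control samples of the same dye, and for H3C15 they lie above the MM samples (12.95 and 12.90 against 11.93 and 11.86).

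Replication-dependent histone genes form the large clusters that are transcribed in S phase to pack new DNA. They lay on the WT side as a group, by a small amount. Of 65 measured, 53 were above 0, against 49.2% of all genes, the median was 0.135 against -0.0018 for all genes, and 44 were positive on both arrays. The median was 0.140 on either array taken alone. The test was passed by 5, all higher with WT (0.546% of all genes were), and 25 had an unadjusted p below 0.05, again all higher (6.25% of all genes were). H3C15, which encodes histone H3, was 12.95 and 12.90 in WT and 11.93 and 11.86 in MM cells (difference 1.03, SE 0.0678, adjusted p = 0.0006), and control cells read 13.26 and 13.10. H4C5 was 10.93 and 10.86 in WT, 10.49 and 10.41 in MM and 11.61 and 11.54 in control cells (WT minus MM 0.44, adjusted p = 0.0284). WT minus control for H4C5 was -0.68 (adjusted p = 0.0105). The remaining called members were H3C7 (0.40), H4C1 (0.37) and H2AC17 (0.34), the last named after its values were seen. Probes of these multi-copy genes may read near-identical copies, so a value may belong to several genes.

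WT minus control, which shares the WT samples but compares 2 Cy3 groups, had a median of -0.21 over the 65 histones, with 4 members lower in WT past the test (H4C5, H3C4, H3C7 and H4C1; 0.126% of all genes) and none higher. Control minus PIM1, with the same dye order as WT minus MM and no shared sample, had a median of 0.41, and PIM1 + WT minus PIM1 + MM had a median of -0.06. The difference between WT and MM was tested against that in the labelled PIM1 line for every gene, a contrast in which an equal dye effect cancels. In it, 11 of the 65 histone genes passed, all with a larger value without stable PIM1 (0.503% of all genes), and the median was 0.24. For H3C15 the difference in the labelled PIM1 line was -0.36 and the change 1.39 (adjusted p = 0.00233 by limma).

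Small non-coding RNAs also lay on the WT side. These are short RNAs of the splicing, ribosome-making and transcription machinery, mostly without a poly(A) tail. Of 33 measured, 28 were above 0 (49.2% of all genes were), the median was 0.167, and 7 passed the test, all higher with WT (0.546% of all genes). RN7SK, the 7SK RNA that holds the elongation factor P-TEFb inactive, was 13.51 and 13.66 in WT and 12.52 and 12.76 in MM cells (difference 0.95, adjusted p = 0.00453), with 13.85 and 13.86 in control cells. SNORA73A, a box H/ACA small nucleolar RNA, was 8.82 and 8.81 in WT and 8.13 and 8.12 in MM cells (0.69, adjusted p = 0.00253). The groups were apart in both cases. SNORD3B-1 (a U3 gene of pre-ribosomal RNA processing, 0.81), SNORA28 (0.81), RNU2-1 (the U2 RNA of the spliceosome, 0.80), RN7SL1 (the signal recognition particle RNA, 0.63) and RMRP (the RNA of an RNase that cuts pre-ribosomal RNA, 0.36) completed the 7. The 28S ribosomal RNA gene RNA28SN5, which is not in the list, passed as well (0.82). Several of these have near-identical copies in the genome, so their values are uncertain as to gene.

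Against control cells of the same dye these RNAs read lower in WT, with a median of -0.25 over the 33. The test was passed by 4 members, all lower (0.126% of all genes were), namely SNORA28, SNORD15A, RMRP and SNORD116-19. SNORA28 read 9.05 and 8.85 in control, 8.03 and 8.12 in WT and 7.28 and 7.25 in MM cells, and WT minus control was -0.88 (adjusted p = 0.0105). The median of control minus PIM1 was 0.77 and that of PIM1 + WT minus PIM1 + MM was -0.10. In the test of the difference between the lines 8 of the 33 members had a larger value without stable PIM1 (0.503% of all genes). RNU12 alone had a smaller one (1.71% of all genes), and the median over the 33 was 0.27. H3C4, SNORD15A, RMRP, SNORD116-19 and RNU12 are named after their values were seen.

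Interferon-stimulated genes, which encode the antiviral effectors that cells switch on after sensing viral RNA, were the third group on the WT side. Of 44 measured, 35 were above 0 (49.2% of all genes were), the median was 0.107, and 5 passed the test, all higher with WT (0.546% of all genes). At an unadjusted p below 0.05, 18 were higher and none lower, where 6.25% of all genes were higher. OASL, an antiviral protein related to the 2'-5'-oligoadenylate synthetases, was 14.03 and 13.94 in WT and 13.28 and 13.34 in MM cells (difference 0.68, SE 0.0605, adjusted p = 0.00367). BST2, the tetherin that holds budding virus at the cell surface, was 9.25 and 9.30 in WT and 8.61 and 8.70 in MM cells (0.62, adjusted p = 0.012). Here control cells read like WT, at 13.86 and 13.84 for OASL and at 9.34 and 9.26 for BST2, and the median of WT minus control over the list was -0.01. IFI44L (0.56), RSAD2 (viperin, an antiviral enzyme, 0.50) and OAS3 (which makes the 2'-5'-oligoadenylate that activates RNase L, 0.36) completed the 5, RSAD2 being named after its values were seen. In control minus PIM1, which has the same dye order, the list had the opposite direction with a median of -0.71, and OASL, BST2 and IFI44L read -1.21, -1.18 and -1.08. The list median in PIM1 + WT minus PIM1 + MM was 0.04.

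The promoters of the list were searched for the core of the interferon-stimulated response element, which is GAAA, any 2 bases and GAAA again, on either strand, in the 250 bases before each RefSeq gene start (GRCh38.p14). The core was present in 20 of the 35 interferon-stimulated genes with a promoter in the table (57.1%) and in 2.67% of 14637 tested genes. That share describes the list and does not bear on WT against MM. Among called genes the core was present in 4 of 71 promoters of those higher with WT (5.63%). It was present in 0 of 42 of those lower with WT. A match of each of 3 called genes is shown to place the core against the gene start, with capitals for the core. Each is read along the gene's own strand.
BST2, chr19:17405730-17405769, minus strand: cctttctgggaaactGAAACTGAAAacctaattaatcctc
IFI44L, chr1:78620360-78620399, plus strand: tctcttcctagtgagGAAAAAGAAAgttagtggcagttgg
OAS3, chr12:112938447-112938473, plus strand: cggagagccgggcggGAAAACGAAAcc
The RSAD2 window held no match to these letters, and OASL had no promoter sequence to search. The NFAT core was searched as GGAAAA, a stricter string than the GGAAA core named above. On either strand it was present in 17 of 71 promoters of genes higher with WT (23.9%). The same string was present in 12 of 42 of those lower with WT (28.6%) and in 19.1% of all tested genes. Matches to both motifs can share bases. A match is a description of the letters, not a bound site.

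**Figure D4:**
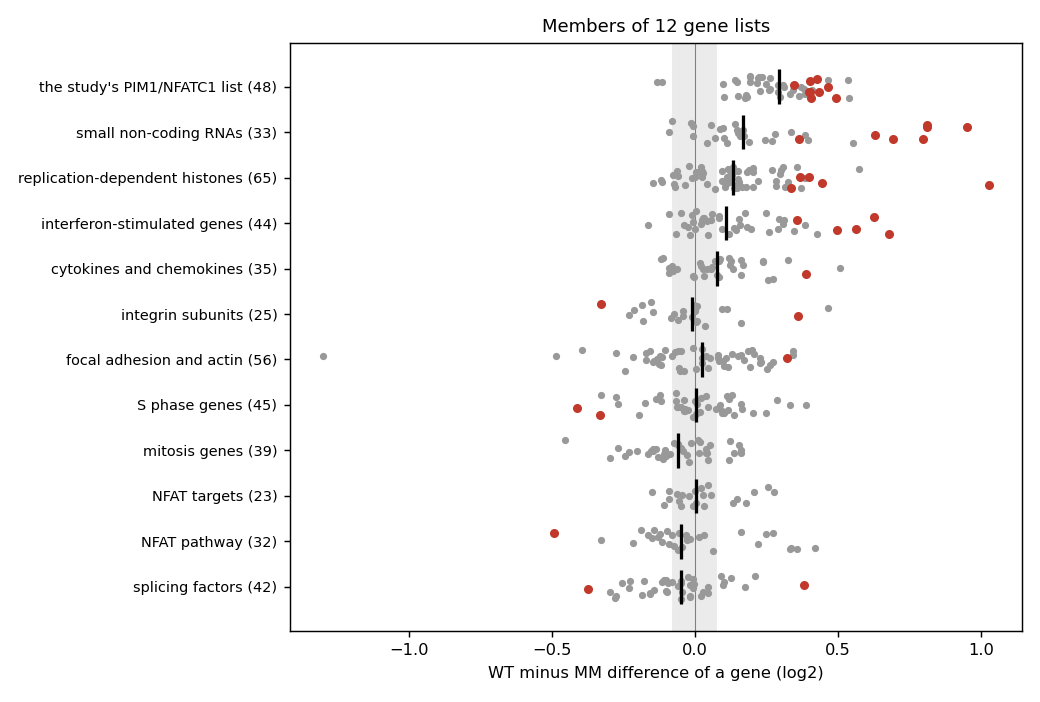
WT minus MM log2 difference of each measured member (points) of the gene lists on the y axis, with red points for adjusted p below 0.05, a black bar at the list median and a grey band for the middle 50% of all genes (-0.077 to 0.073). The medians of histones (0.135), small non-coding RNAs (0.167) and interferon-stimulated genes (0.107) lie right of the band, and the integrin median (-0.009) lies within it.

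Genes of adhesion and movement were examined because the study links NFATC1 to migration and invasion. Integrins are the paired receptors that bind matrix outside the cell and the actin cytoskeleton inside it. Of 25 integrin subunits 10 were above 0 and the median was -0.009. In each direction 1 passed (8% in all, against 0.793% of all genes). ITGA3, the alpha 3 chain of a laminin receptor, was 12.49 and 12.42 in WT and 12.11 and 12.07 in MM cells (difference 0.36, adjusted p = 0.0435). Its partner chain ITGB1 was 11.18 and 11.19 in WT and 11.52 and 11.51 in MM cells (-0.33, adjusted p = 0.0405). The partner chains thus lay on opposite sides, except with median centring, where ITGB1 read 0.14. ITGA5, the alpha chain of the fibronectin receptor, was 9.64 and 9.65 in WT, 9.21 and 9.15 in MM and 9.69 and 9.53 in control cells, and its difference of 0.46 did not pass (SE 0.0869, adjusted p = 0.0526). It passed with the slide as a block (adjusted p = 0.0405) and with the array as a fixed or random block (adjusted p = 0.0204 and 0.00596). By real-time PCR the study reports lower ITGA5 with MM than with WT NFATC1. In its array samples this was significant in the control line, and in an independent set in the PIM1 line. On the arrays the ITGA5 difference in the line labelled stable PIM1 was 1.08. The change between the lines (-0.62) passed with an adjusted p of 0.0400 by limma.

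Focal adhesion and actin genes, the link between integrins and the cytoskeleton, had a median of 0.026 with 31 of 56 above 0. The test was passed by 1 of them (1.79%, against 0.793% of all genes). That gene was TLN1, talin, which activates integrins, at 10.42 and 10.50 in WT and 10.12 and 10.16 in MM cells (0.32, adjusted p = 0.0444). Alpha-actinin ACTN1 (0.34, adjusted p = 0.0615), profilin PFN1 (0.26) and the integrin-linked kinase ILK (0.27) did not pass against MM. Against control cells of the same dye all 3 were higher with WT, by 0.50, 0.44 and 0.44 with adjusted p from 0.0211 to 0.0352.

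Among proteases and their inhibitors, 1 of 33 invasion genes passed (3.03%, against 0.793% of all genes). This was TIMP1, which blocks matrix metalloproteinases. It read 13.73 and 13.70 in WT, 13.27 and 13.29 in MM and 13.37 and 13.44 in control cells (WT minus MM 0.44, adjusted p = 0.0332). Of 20 cathepsin genes, CTSZ passed, and cathepsin D, CTSD, had a difference of 0.35 in the other direction that did not pass (adjusted p = 0.113). Genes of epithelial and mesenchymal state had 16 of 24 above 0, a median of 0.017 and none past the test.

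The study's own list of genes that differed between PIM1 + MM and PIM1 + WT cells was chosen on samples of this series, so it is not independent evidence of a direction. Without added PIM1, 46 of its 48 measured genes were above 0, with a median of 0.293. The test was passed by 9 (18.8%), all higher with WT, where 0.546% of all genes were. The median in the labelled PIM1 line, where the list was chosen, was 1.21. Since the list was chosen for a large difference there, smaller values without added PIM1 follow in part from the choice and are given as a description. Examples are COL6A2, a chain of collagen VI, which was 10.91 and 10.90 in WT and 10.42 and 10.41 in MM cells (0.49, adjusted p = 0.00907; 1.28 in the labelled PIM1 line), the clathrin adaptor subunit AP2A1 (0.47; 1.23), the triglyceride lipase PNPLA2 (0.40; 1.09) and PCSK1N, an inhibitor of a prohormone convertase (0.40; 1.11). In control cells of the same dye as WT, COL6A2 read 10.77 and 10.77 and PNPLA2 read 10.35 and 10.37, and WT minus control was 0.14 and -0.05.

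The NFAT pathway itself moved little. Of 32 measured genes for calcium entry, calcineurin and the NFAT factors other than NFATC1, 11 were above 0. The median was -0.050 and 1 passed (3.12%, against 0.793% of all genes). That was PPP3R1, the regulatory subunit of calcineurin, at 7.59 and 7.60 in WT, 8.07 and 8.11 in MM and 7.99 and 7.94 in control cells (WT minus MM -0.49, adjusted p = 0.0129). WT stood below control as well, by an amount that did not pass (-0.37, adjusted p = 0.0502), and the difference in the labelled PIM1 line was -0.41. The catalytic subunit PPP3CA (-0.33, adjusted p = 0.0774) and the calcium channel subunit ORAI2 (0.36, adjusted p = 0.0573) did not pass. Of 23 genes known as NFAT targets, 12 were above 0, the median was 0.003 and none passed, MYC being 0.27 with an adjusted p of 0.128. RCAN1, a calcineurin inhibitor that NFAT induces in many cells, read 10.33 and 10.28 in WT and 10.41 and 10.50 in MM cells, a difference of -0.15 with a 95% interval from -0.37 to 0.07.

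The PIM kinases made by the cells themselves did not pass the test. PIM1 was 10.21 and 10.10 in WT and 10.14 and 10.12 in MM cells, and the 95% interval of its difference ran from -0.20 to 0.25. PIM2 had a difference of 0.04 (interval -0.11 to 0.20) and PIM3 one of -0.17 (interval -0.39 to 0.05). The line labelled stable PIM1 is named by its label here, because its array signal was not clearly raised. The study reports PIM1 overexpression in its cell samples by real-time PCR, a measurement not repeated here. On the arrays the PIM1 probe read 10.32 and 10.08 in PIM1 cells, against 10.05 and 9.85 in control cells. It read 9.90 and 9.96 in PIM1 + WT and 10.21 and 10.36 in PIM1 + MM cells. Control minus PIM1 was -0.25 and did not pass (adjusted p = 0.107), and PIM1 + WT read below WT, which carries the same dye. Whether the probe lies in the transfected sequence is not given in the sources used here.

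S phase genes other than histones were divided between the sides. Of 45 S phase genes 24 were above 0 with a median of 0.002. The 2 that passed (4.44%) were lower with WT, where 0.247% of all genes were. PCNA, the sliding clamp of DNA polymerase, was 12.20 and 12.22 in WT, 12.54 and 12.55 in MM and 12.22 and 12.23 in control cells (WT minus MM -0.33, adjusted p = 0.0283). WT minus control was -0.02 for PCNA. RRM2, the small subunit of ribonucleotide reductase, differed by -0.41 (adjusted p = 0.0397), and the thymidine kinase TK1 by 0.33 (adjusted p = 0.0844). The mitosis genes had 14 of 39 above 0, a median of -0.059 and none past the test, the exchange factor ECT2 coming nearest at -0.45 (adjusted p = 0.0517) and the topoisomerase TOP2A reading -0.27.

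Other lists held 1 or 2 called genes each, where 0.793% of all genes were called. In glycolysis and hypoxia genes (24 of 36 above 0, median 0.052) these were PFKL, a phosphofructokinase, at 10.92 and 10.94 in WT, 10.33 and 10.37 in MM and 11.30 and 11.21 in control cells (0.58, adjusted p = 0.00571), and the hypoxia-induced carbonic anhydrase CA9 (0.52, adjusted p = 0.0265). CA9 read 8.06 and 7.96 in WT, 7.48 and 7.51 in MM and 7.74 and 7.68 in control cells. WT minus control passed for neither (-0.33 for PFKL and 0.30 for CA9, adjusted p = 0.0692 and 0.189). Among 35 cytokines, chemokines and their NF-kappaB regulators (26 above 0, median 0.077) BIRC3, an inhibitor of apoptosis, passed (0.39, adjusted p = 0.0287). FOSL1, a FOS family partner of NFAT at AP-1 sites, was 12.52 and 12.52 in WT and 12.11 and 12.11 in MM cells (0.41, adjusted p = 0.0253), alone among 38 AP-1 and early growth response genes, with JUND at 0.39 (adjusted p = 0.131). BIK, a death-promoting BCL2 relative (0.46), and MVD, an enzyme of cholesterol synthesis (0.38), passed as well. NFKB2 (0.27, adjusted p = 0.0811) and BCL2L1 (0.29, adjusted p = 0.0782) did not.

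Among 42 splicing factors, 11 were above 0 with a median of -0.049, and HNRNPL was higher (0.38) and HNRNPH2 lower (-0.37) with WT. No gene passed among 82 cytosolic ribosomal proteins (35 above 0, median -0.012), 34 genes of the integrated stress response (20 above 0, median 0.067) or 270 olfactory receptors (106 above 0, median -0.021). Of 477 zinc finger genes 191 were above 0 and the median was -0.027. The 2 that passed (0.419%, against 0.793% of all genes) were ZNF358 (0.40) and ZNF687 (0.36), both named after their values were seen. Where a list median is below 0 in these paragraphs, relative to all genes it turned positive with median centring in the NFAT pathway, integrins, mitosis genes, splicing factors, ribosomal proteins and zinc finger genes, and in the NFAT pathway and integrins also with 1 sample left out.

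Since dye and group run together, each called gene was also set beside the other 2 differences of Cy3 minus Cy5, control minus PIM1 and PIM1 + WT minus PIM1 + MM. Among the 139 genes higher with WT, 63 were positive in both others (45.3%, against 24.3% of all genes above 0). Among the 63 lower with WT, 46 were negative in both others (73.0%, against 36.9% of all genes below 0). Of the 2 genes higher with WT and negative in both others, 1 has no matched symbol and the other is S100P, a calcium-binding protein, at 12.36 and 12.28 in WT and 11.90 and 11.95 in MM cells (0.40; -0.29 in the labelled PIM1 line). The single gene lower with WT and positive in both others was TBC1D25, a Rab GTPase regulator, at 7.29 and 7.32 in WT and 7.66 and 7.66 in MM cells (-0.36; 0.05 in the labelled PIM1 line).

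Within 1 dye, WT and control cells differed in 52 genes (0.204%), 20 higher and 32 lower with WT, and this comparison also takes in the transfection itself. Leaving out control replicate 1 gave 3 calls, leaving out WT replicate 1 or 2 gave 4 or 23. Of the 139 genes higher with WT than with MM, 61 were above control, and of the 63 lower ones, 39 were below control. Over all genes the median of WT minus control was -0.018. Both differences share the WT samples, so these counts depend in part on how the genes were chosen. MM and control carry different dyes, so their values stand side by side with no test between them.

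The line labelled stable PIM1 offers a pair of groups with the same dyes and no shared sample. There, 116 of the 139 genes higher with WT were again positive and 56 of the 63 lower ones were negative, while 43.1% of all genes were positive. The change of the difference between the lines passed in 563 genes (2.21%), 128 with a larger value without stable PIM1 and 435 with a smaller one (1.71%), and 20 to 131 genes when 1 of the WT or MM samples was left out. Of the 139 genes higher with WT, 49 changed between the lines, 23 with a larger and 26 with a smaller value without PIM1. Of the 63 lower ones 7 did, all with a more negative value without PIM1. These genes were chosen on WT minus MM, which is part of this change, so its direction follows in part from the choice. H3C15, RN7SK and S100P were among those with the larger value, and ITGA3, TLN1 and FOSL1 among those with the smaller one.

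**Figure D5:**
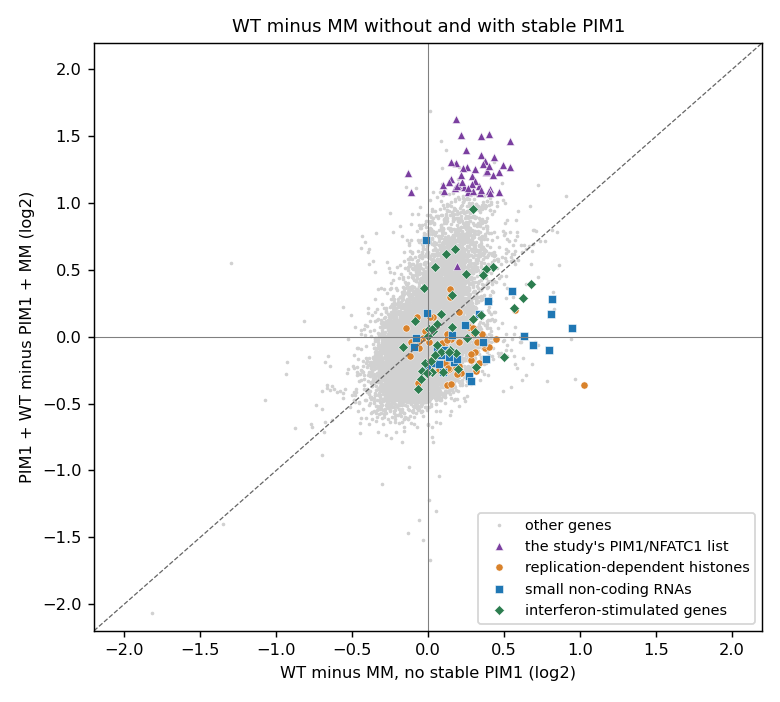
WT minus MM log2 difference without stable PIM1 (x axis) against PIM1 + WT minus PIM1 + MM (y axis) for the genes tested, with the named groups marked. Histones and small non-coding RNAs lie right of 0 and near 0 on the y axis (medians 0.135 and 0.167 against -0.06 and -0.10), while the study's list lies higher on the y axis (1.21) than on the x axis (0.293).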

How the data were processed

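Total RNA, extracted with Trizol after transient transfection with Fugene HD, was labelled with the Low Input Quick Amp kit and hybridised by the authors to 2-colour 4x44K arrays, which were read with Feature Extraction 11.0.1.1. The deposited scanner files hold the median intensity of each spot in both channels, uncorrected for background. The deposited value table holds log2 values that the authors quantile normalized over the 12 channels, and it was used as an alternative. Flags of the files marked outlier spots, which were left out. Here log2 median intensity was quantile normalized with limma 3.58.1 in R 4.3.3, spots of a probe were averaged, probes above the 90th percentile of negative controls in at least 2 channels were kept (31484 of 34127), and the median of a gene's probes was taken. RefSeq accessions gave 18857 of the 25471 genes a symbol. One limma model with 6 groups gave each difference, with Benjamini-Hochberg adjustment over all genes; the interaction was (WT minus MM) minus (PIM1 + WT minus PIM1 + MM). The steps were tested on simulated data. The named genes were a fixed set with NFATC1 and the PIM kinases, the 12 largest called differences in each direction, called genes opposite to both other dye differences, and up to 4 genes of smallest p in each list. Members and lists were chosen with earlier results of these data known. Replicates of the same number share a slide, and those of WT and MM an array: deviations from group means correlated at 0.497 between WT and MM and at 0.345 to 0.834 for all array partners, against 0.0508 to 0.172 between arrays. The number of arrays limits the precision, and bulk RNA cannot tell fewer cells of a kind from less RNA per cell. The methods place RNA extraction on the day after transfection, while the results name a later time. Some items are not reported here.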

Additional observations from a re-analysis of the deposited data

Results flagged for a closer look

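The difference between WT and MM was itself different with and without stable PIM1 (adjusted p below 0.05 by limma for the change, an interaction term) in 26 named genes that passed the WT minus MM test. Each value here is the log2 change, (WT minus MM) minus (PIM1 + WT minus PIM1 + MM), and dye effects that are equal in both lines cancel in it. Histone genes had larger values without stable PIM1, at 1.39 for H3C15, 0.536 for H2AC17, 0.474 for H3C7, 0.457 for H4C5 and 0.419 for H4C1. Small RNA genes did as well, at 0.894 for RNU2-1, 0.887 for RN7SK, 0.749 for SNORA73A, 0.639 for SNORA28, 0.62 for RN7SL1 and 0.4 for RMRP. The same direction was seen for S100P (0.681), the interferon-stimulated gene RSAD2 (0.649) and BIRC3 (0.543).

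Values were smaller without stable PIM1 for ZNF358 (-0.877), COL6A2 (-0.791), AP2A1 (-0.764), PCSK1N (-0.703) and PNPLA2 (-0.692), all members of the study's list, which was chosen for large differences with PIM1, and for TLN1 (-0.66), ITGA3 (-0.65), FOSL1 (-0.595) and MVD (-0.488). AP1S1 (-0.662), ITGB1 (-0.465) and TBC1D25 (-0.407) were lower with WT than with MM without stable PIM1, and less so, or higher, with it. H4C5 lies at the threshold, with an adjusted p of 0.04997. What sets these differences between the lines was not tested.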

How the results depend on the processing

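For WT minus MM, genes with adjusted p below 0.05 numbered 202 as reported, and 112 after normexp background correction, 373 after loess (274 higher, 99 lower), 63 with the processed signal, 634 (378 higher, 256 lower) when probes had to be above background in all 12 channels (NFATC1 then rests on its second probe), 520 and 1226 with the array as a fixed or random block, 5 in a fit of the 4 samples alone, 329 without the array that holds replicate 1 of control and of PIM1, 124 without the band of rows on 1 array, and 8 to 30 with 1 sample left out (8 and 30 without WT replicates 1 and 2, 9 and 19 without MM replicates 1 and 2). The replicate block, which pairs samples on a slide, gave 257 (169 higher, 88 lower), 683 for the interaction and 57 for WT minus control. Median centring, which leaves differences that run from -0.682 in the dimmest of 10 bins of genes to 0.445 in the brightest, gave 0 calls for WT minus MM, the interaction and WT minus control, with 7674, 240 and 246 genes at an unadjusted p below 0.05.

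For the interaction, genes with adjusted p below 0.05 numbered 563 as reported (22.7% positive), 946 after loess (8.25% positive), 1475 with the stricter filter (39.5%), 1448 and 2477 with the array as a fixed or random block (37.7% and 45.1%), 945 without the control array, and 20 to 131 with 1 sample left out. For WT minus control, genes with adjusted p below 0.05 numbered 52 as reported (38.5% higher), 22 after normexp, 80 after loess, 2 with the processed signal, 207 with the stricter filter (49.8%), 29 without the control array, and 3 to 58 with 1 sample left out (3 and 58 without control replicates 1 and 2, 4 and 23 without WT replicates 1 and 2), a choice made after seeing the data, as was leaving out rows.

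With median centring the sign turned for PIM3 (0.31), RCAN1 (0.29), PPP3CA (0.0807), ITGB1 (0.14), PCNA (0.16), RRM2 (0.0473), TOP2A (0.16), HNRNPH2 (0.0784), RNU12 (0.32) and the median of the mitosis list relative to all genes (0.467). PIM2 turned with the processed signal (-0.0626) and RNU12 after loess (0.0023). With 1 WT or MM sample left out PIM1 ranged from -0.0366 to 0.083, PIM2 from -0.0062 to 0.0904, SNORD15A from -0.0082 to 0.15 and RNU12 from -0.029 to 0.0011. The cause was not tested. CTSZ ranged from -1.52 to -0.99 and passed in 18 of 19 settings, H3C15 from 0.98 to 1.48 (18 of 19), OASL from 0.63 to 1.13 (15 of 19), LTB from 0.79 to 1.11 (11 of 19) and ITGA5 from 0.44 to 0.85 (9 of 19). The medians of histones (0.121 to 0.584), small non-coding RNAs (0.149 to 0.452), interferon-stimulated genes (0.0887 to 0.53) and the study's list (0.271 to 0.702), relative to all genes, kept their sign in all 19. In the 3 dimmest of the 10 bins of genes none passed, where signals lie near background. A group cut to 1 sample borrowed its spread from the rest.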
